A study of Mus musculus with 2 samples.

Results

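The major urinary protein (*Mup*) genes of the mouse were followed in liver RNA of 2 libraries, 1 from the AAV-GFP group and 1 from the AAV-*Wee1-AS* group. The 10 genes *Mup1*, *Mup2*, *Mup3*, *Mup7*, *Mup10*, *Mup11*, *Mup12*, *Mup17*, *Mup19* and *Mup20* were chosen by symbol among the 45777 symbols of a transcript table, in which they have 23 of 129299 transcripts. The other 20 *Mup* symbols of the table, pseudogenes included, are given beside them. C57BL/6 N mice were 7 weeks old when a high-fat diet (HFD) was started, ate it for 18 weeks and received an adeno-associated virus (AAV) into the retro-orbital vein in week 13. The AAV-GFP virus carries green fluorescent protein and is the control, and the AAV-*Wee1-AS* virus carries *Wee1-AS*, a long noncoding RNA from the strand opposite to the gene of the cell cycle kinase WEE1. The AAV-*Wee1-AS* vector used a CMV promoter, which is not specific to hepatocytes, the promoter of the AAV-GFP vector is not given in the sources used here, and both groups were on HFD. The design text counts 4 liver samples, 2 libraries were analysed here, and whether RNA of several mice was pooled is not stated. With 1 library per group, no spread between mice can be estimated, so no difference given here has a replicate check and no p-value is given.

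MUPs are small secreted proteins of the lipocalin family, whose barrel-shaped fold binds volatile pheromones. The liver of the mouse makes them in very large amounts, the blood carries them to the kidney, and they leave in the urine as scent signals. Their liver RNA is higher in males than in females and depends on pulses of growth hormone, which act through the growth hormone receptor, the kinase JAK2 and the transcription factor STAT5B, and also on androgens, thyroid hormone and glucocorticoids. Circulating MUP1 is also known to act on glucose and energy metabolism. *Mup20* encodes darcin, a male pheromone.

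The cluster lies on chromosome 4. In RefSeq (GRCm38.p6, the assembly of the mm10 build that the table uses), 44 *Mup* genes span 2194038 bases from position 59956804 to 62150841, and 24 of them are protein-coding. All 10 members are on the minus strand. The copies are so alike that reads had to be divided between them. In GENCODE M21, the coding sequences of the 8 members other than *Mup3* and *Mup20* differed from each other at 1 to 7 aligned positions, with 98.7% to 99.8% identity. *Mup20* differed from the other members at 46 to 65 positions (88.1% to 91.5% identity) and *Mup3* at 65 to 87 (84.0% to 88.1%). To make this visible, the 60 bases within 1 exon in which *Mup20* has most bases of its own are shown. They are in exon 3, at positions 234 to 293 of the *Mup20* coding sequence, and capitals mark bases other than the most common base of the 10 members at that position. *Mup10*, *Mup17* and *Mup19* have the sequence given for *Mup7*, and *Mup2*, *Mup11* and *Mup12* that given for *Mup1*.
Mup20 (chr4:62052650-62052709): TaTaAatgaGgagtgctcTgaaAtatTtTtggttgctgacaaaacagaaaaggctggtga
Mup3 (chr4:62085973-62086032): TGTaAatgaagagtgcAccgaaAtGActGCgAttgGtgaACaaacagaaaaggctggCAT
Mup7 (chr4:60068915-60068974): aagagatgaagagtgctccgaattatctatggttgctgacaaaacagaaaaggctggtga
Mup1 (chr4:60500453-60500512): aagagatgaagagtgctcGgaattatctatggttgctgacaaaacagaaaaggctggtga
*Mup20* has 8 such bases in this window and *Mup3* has 17, while each of the other 8 members has at most 1. At 4 of the 60 positions, *Mup20* differs from all 9 other members.

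A stretch of 100 bases, the length of 1 read, tells a copy apart only where no other *Mup* transcript holds the same stretch. In *Mup3*, 859 of 885 such windows (97.1%) were found in no other *Mup* gene of GENCODE M21, and in *Mup20* 507 of 829 (61.2%). The share was 40.6% in *Mup17* and 22.5% in *Mup12*. It lay between 12.8% and 16.5% in *Mup1*, *Mup7*, *Mup10* and *Mup11*, and it was 2.66% in *Mup2*. None of the 828 windows of *Mup19* was its own. Windows of these 8 genes occurred in up to 16 *Mup* genes, whereas a window of *Mup3* or *Mup20* occurred in at most 2. The pseudogene *Mup-ps19* had 322 of its 420 windows in common with *Mup20*. The values of *Mup3* rest almost wholly on windows of its own, while those of the other members depend more on how the authors' program divided shared reads.

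Upstream sequence was taken from RefSeq for the 7 members with an entry (*Mup2*, *Mup3*, *Mup7*, *Mup10*, *Mup11*, *Mup17* and *Mup19*). *Mup1*, *Mup12* and *Mup20* are named only. Each window of GRCm38.p6 holds 250 bases before and 50 bases after the annotated start. The windows of *Mup7*, *Mup17* and *Mup3* are shown because these genes had the highest, the next highest and the lowest ratio among the 9 members that were higher with AAV-*Wee1-AS*. They are on the minus strand, and each is printed 5′ to 3′ from its upstream end to the TATATAA motif or, for *Mup7*, to the annotated start. Capitals mark TATATAA and ATCAAT on either strand.
Mup7 (chr4:60070476-60070725): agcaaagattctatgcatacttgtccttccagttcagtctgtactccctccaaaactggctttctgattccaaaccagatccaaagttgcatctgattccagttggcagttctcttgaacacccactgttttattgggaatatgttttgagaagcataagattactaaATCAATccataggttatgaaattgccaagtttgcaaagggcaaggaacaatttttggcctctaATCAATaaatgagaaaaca
Mup17 (chr4:61595851-61596082): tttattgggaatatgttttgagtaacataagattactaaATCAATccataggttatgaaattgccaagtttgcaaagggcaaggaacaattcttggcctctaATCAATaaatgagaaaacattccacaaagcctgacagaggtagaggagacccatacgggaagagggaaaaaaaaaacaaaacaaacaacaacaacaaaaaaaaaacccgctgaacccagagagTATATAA
Mup3 (chr4:62087322-62087567): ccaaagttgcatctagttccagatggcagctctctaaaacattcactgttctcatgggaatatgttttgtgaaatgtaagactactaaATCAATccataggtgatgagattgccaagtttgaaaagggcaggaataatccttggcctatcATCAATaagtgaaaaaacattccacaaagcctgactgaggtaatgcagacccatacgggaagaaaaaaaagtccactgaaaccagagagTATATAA
ATCAAT, the core of the motif of the liver factor ONECUT1, occurred 2 times in each of the 7 windows, and 7.54% of all 32851 promoter windows of the same length held a match. TATATAA, a form of the TATA box, was in 6 of the 7 windows and in 3.24% of all windows. The window without it is that of *Mup7*, whose printed sequence ends soon after its last ATCAAT. In *Mup17* and *Mup3*, a longer stretch follows that ATCAAT before TATATAA. The annotated start of *Mup7* thus lies further upstream in the like sequence, and bases past its window were not searched. The 7 windows are copies of like sequence, so their matches are not separate cases. It can overlap its own reverse complement, TTATATA. The STAT5 motif TTCNNNGAA was in none of the 7 windows and in 8.30% of all windows. CCAAT was in 3 of the 7 and in 37.4% of all windows, and AGAACA, a binding element of the glucocorticoid receptor, was in 1 of the 7 and in 18.97% of all. Both strands were searched for each motif, and the matches describe the letters of these windows only.

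The AAV-GFP library held 55466182 estimated counts in all, and the AAV-*Wee1-AS* library held 48079335. They are whole-number shares that the authors' program assigned to transcripts, summed here over the transcripts of a symbol. Ratios are those of AAV-*Wee1-AS* over AAV-GFP after scaling by edgeR's TMM method, with a prior count of 2. Their 95% intervals are exact (Clopper-Pearson) and cover counting error only, neither variation between mice nor the division of reads between copies. Of the 8 hepatocyte markers, 1 was above 2-fold and 0 were below 0.5-fold, and their summed level was 101924 TPM (a level per transcript length, made comparable between libraries) with AAV-GFP and 104015 TPM with AAV-*Wee1-AS*. Such a sum follows its most abundant genes. By ratio, 2 of the 8 were higher and 6 lower, with a median log2 ratio of -0.26. In the same order, the summed levels were 44.1 and 37.9 TPM for 5 cholangiocyte markers, 333 and 270.1 TPM for 6 Kupffer cell markers, 173 and 154 TPM for 6 stellate cell markers, 126 and 104.0 TPM for 5 endothelial markers and 5.34 and 3.04 TPM for 5 lymphocyte markers. The median log2 ratios of these lists were -0.18, 0.75, -0.17, -0.09 and -0.82. Of the Kupffer cell markers, 4 were higher and 2 lower, although their sum was lower. Above 2-fold were 3 of the Kupffer cell and 1 of the stellate cell markers, below 0.5-fold 1 of the stellate cell and 1 of the lymphocyte markers, against 22.2% above 2-fold and 8.71% below 0.5-fold over all genes that reached 10 counts in a library, and no marker of these lists was at 0. With the trends of GC content and length over all genes removed, the only marker above 2-fold was *Marco* of the Kupffer cell list (log2 ratio 2.22). Those below 0.5-fold were then *Dcn* of the stellate cell list (-1.17) and *Spp1* of the cholangiocyte list (-1.02). The part of these markers in the *Mup* values was not tested. *Xist*, the RNA of the inactive X chromosome of females, was at 0 counts in both libraries. The 4 Y chromosome genes *Ddx3y*, *Eif2s3y*, *Kdm5d* and *Uty* together had 608 counts with AAV-GFP and 2618 with AAV-*Wee1-AS*. All 4 were above 2-fold, with log2 ratios from 1.76 to 2.84. With the trends removed, these were 1.29, 0.93, 0.34 and 1.25 in the order named. What the difference comes from was not tested.

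The 10 genes together had 492441 counts with AAV-GFP and 1280848 with AAV-*Wee1-AS*. After scaling, the sum was 3.12-fold higher with AAV-*Wee1-AS* (95% counting interval 3.11 to 3.13), a log2 ratio of 1.64. The log2 ratio was 0.65 with the trends of GC content and length over all genes removed. It was 0.99 with the longest transcript of each symbol only, and both values are under 2-fold. The longest transcript held at most 0.79% of the counts of *Mup1*, *Mup10*, *Mup11*, *Mup12*, *Mup17* and *Mup19* in either library. For *Mup20* it held 99.9% in both libraries, so the 0.99 leaves out nearly all counts of those other members. The cluster took up 0.888% of all estimated counts with AAV-GFP (0.885% to 0.890%, exact binomial interval) and 2.66% with AAV-*Wee1-AS* (2.66% to 2.67%). In TPM, the 10 genes held 1.65% and 4.96% of the library. The sum does not depend on how reads were divided among the 10 copies, but reads can also be shared with the other *Mup* symbols. Over all 30 *Mup* symbols, 838877 counts with AAV-GFP stood against 2219020 with AAV-*Wee1-AS*, a log2 ratio of 1.67 (1.66 to 1.67). In bulk RNA of liver, more hepatocytes and more RNA per hepatocyte cannot be told apart.

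Of the 10 members, 9 had a ratio above 2 (6 with the trends of GC content and length removed), and the other, *Mup20*, was lower with AAV-*Wee1-AS* without reaching 0.5 (below 0.5 with the trends removed). Among the 15857 genes that reached 10 counts in a library, 22.2% had a ratio above 2 and 8.71% one below 0.5. The counting interval lay wholly above 2 for the same 9 members and for 16.0% of all genes. It lay wholly below 0.5 for 0 members and for 3.72% of all genes. The median log2 ratio was 2.17 over the 10 members and -0.02 over all genes kept. The background was thinner among abundant genes. Of the 530 genes that reached 10000 counts in both libraries, 19 of which are *Mup* symbols and all 10 members among these, 8.49% were above 2. Without *Mup* symbols, 28 of 511 such genes were above 2. Scaling by the upper quartile, which moved the median of all genes from -0.02 to -0.22, left 2938 genes above 2 and 2232 below 0.5, against 3527 and 1381 with TMM, and the same number of members (9) above 2.

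**Figure D1:**
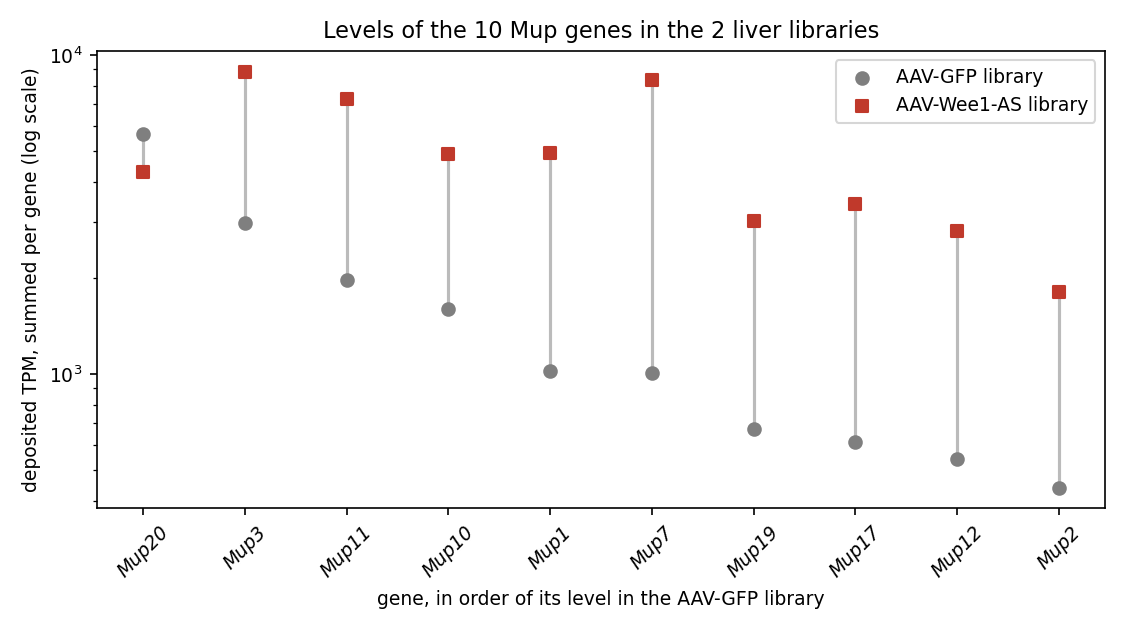
Levels of the 10 *Mup* genes in deposited TPM (log axis), summed per gene, in the AAV-GFP library (circles) and the AAV-*Wee1-AS* library (squares), in order of the AAV-GFP level. *Mup20* has the highest level with AAV-GFP (5661 TPM) and is the only one of the 10 whose square lies under its circle (4292 TPM), while *Mup7* spans the longest distance, from 1003 to 8349 TPM.

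*Mup20* (chromosome 4, 62011337 to 62054143) had the highest level of the 10 with AAV-GFP and was the only one of them that was lower with AAV-*Wee1-AS*. It had 165379 counts with AAV-GFP and 106259 with AAV-*Wee1-AS*, or 5661 and 4292 TPM. The ratio was 0.771 (0.765 to 0.777). Its rank by TPM among all genes was 22 with AAV-GFP and 40 with AAV-*Wee1-AS*. The pseudogene *Mup-ps19* had 94520 counts with AAV-GFP and 62134 with AAV-*Wee1-AS*, a ratio of 0.789 (0.781 to 0.797). Its 519 bases in GENCODE M21 matched *Mup20* in 95.1% of 546 alignment columns, and the columns without a match are gaps. Because 322 of its 420 windows are also in *Mup20*, the values of the pair are not fully separate measurements. The pair summed had a ratio of 0.778. Both were lower under each library scaling, unit, prior count and feature tried, and also with the trends of GC content and length removed.

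*Mup3* (62083476 to 62087317), the member with the most sequence of its own, had 91071 counts with AAV-GFP and 229792 with AAV-*Wee1-AS*. Its level was 2978 TPM with AAV-GFP, next after *Mup20*, and 8865 TPM with AAV-*Wee1-AS*, the highest of the 10. The ratio was 3.03 (3.01 to 3.05), the smallest among the 9 members that were higher. *Mup3* and *Mup20*, the last members along the cluster, thus had ratios on opposite sides of 1.

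*Mup7* (60066469 to 60070475), the first member along the cluster, had the highest ratio. Its counts were 33214 with AAV-GFP and 235453 with AAV-*Wee1-AS*, a ratio of 8.51 (8.41 to 8.61). Its level was 1003 TPM with AAV-GFP and 8349 TPM with AAV-*Wee1-AS*, and its rank among all genes 148 and 16. *Mup17* (61591929 to 61595865) followed, with 17872 and 84475 counts and a ratio of 5.67 (5.58 to 5.77). *Mup12* (60737381 to 60741416) had 15746 and 69218 counts, a ratio of 5.28 (5.19 to 5.37). *Mup1* (60498012 to 60501960), the member known for metabolic effects of its protein, had 31015 and 127477 counts, a ratio of 4.93 (4.87 to 4.996). All 4 are copies that share most of their windows with other *Mup* genes.

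*Mup19* (61778324 to 61782355), which has no window of its own, had 19446 counts with AAV-GFP and 73803 with AAV-*Wee1-AS*, a ratio of 4.56 (4.48 to 4.63). *Mup2* (60135913 to 60139977) had 13039 and 48197 counts, a ratio of 4.44 (4.35 to 4.52). It had the lowest level of the 10 in both libraries, 439 and 1800.2 TPM. *Mup11* (60658466 to 60662432) had 59114 and 185556 counts, a ratio of 3.77 (3.73 to 3.80). *Mup10* (60578260 to 60582276) had 46545 and 120618 counts, a ratio of 3.11 (3.08 to 3.14). In the order of ratios, the counting intervals of the neighbours *Mup19* and *Mup2* overlapped, and those of every other pair of neighbours among the 10 did not. That order rests on 1 library per group and on how shared reads were divided.

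**Figure D2:**
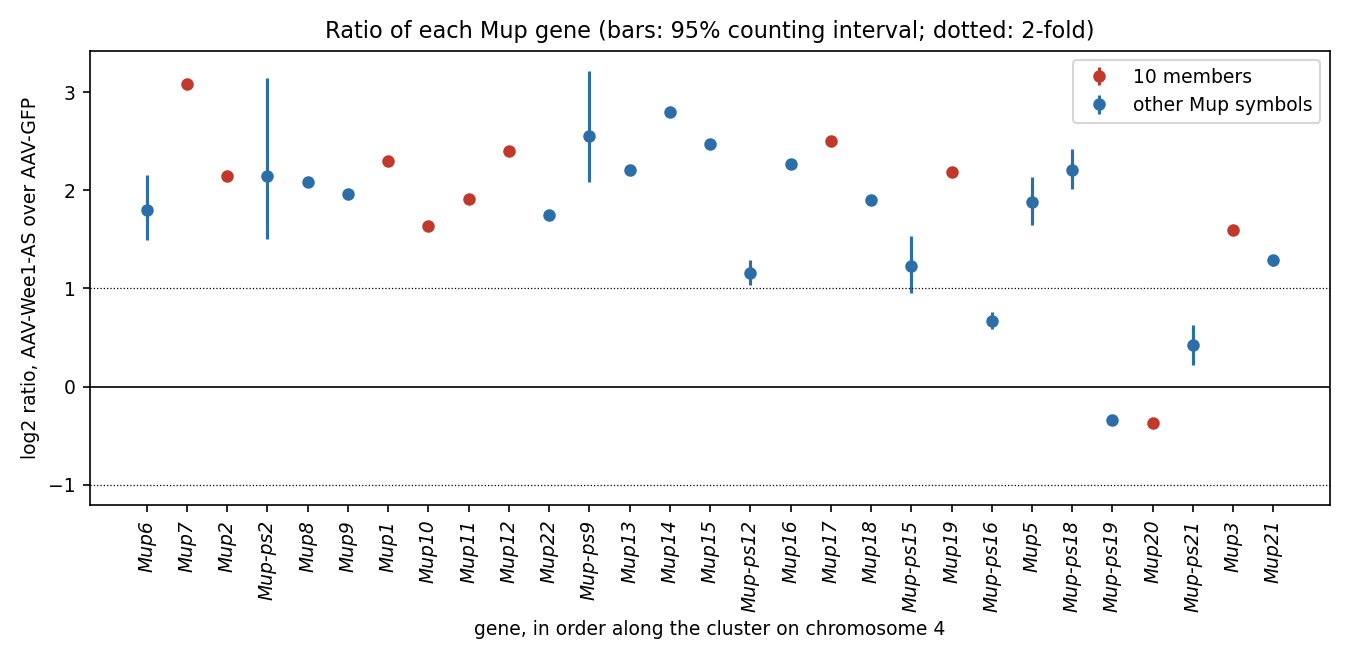
Log2 ratio of AAV-*Wee1-AS* over AAV-GFP for 29 *Mup* symbols in their order along chromosome 4, with 95% counting intervals as bars and dotted lines at 2-fold. *Mup4*, with 0 counts in the AAV-*Wee1-AS* library, is left out. The drawn symbols lie above 0 from end to end, except *Mup-ps19* and *Mup20* (log2 ratios of -0.34 and -0.37).

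The make-up of the cluster differed between the libraries. *Mup20* held 33.6% of the counts of the 10 genes with AAV-GFP and 8.30% with AAV-*Wee1-AS*. The share of *Mup7* was 6.74% with AAV-GFP and 18.4% with AAV-*Wee1-AS*, and that of *Mup1* was 6.30% and 9.95%. The shares with AAV-GFP and AAV-*Wee1-AS* lay close together for *Mup3* (18.5% and 17.9%), *Mup10* (9.45% and 9.42%) and *Mup11* (12.0% and 14.5%). On the TPM scale, *Mup20* had 34.3% and 8.65% and *Mup7* 6.08% and 16.8%. Of the net difference in scaled counts of the 10 genes, *Mup7* made up 23.9%, *Mup3* 17.7%, *Mup11* 15.7% and *Mup1* 11.7%. Without *Mup20*, the other 9 summed to a ratio of 4.31 (4.29 to 4.33).

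**Figure D3:**
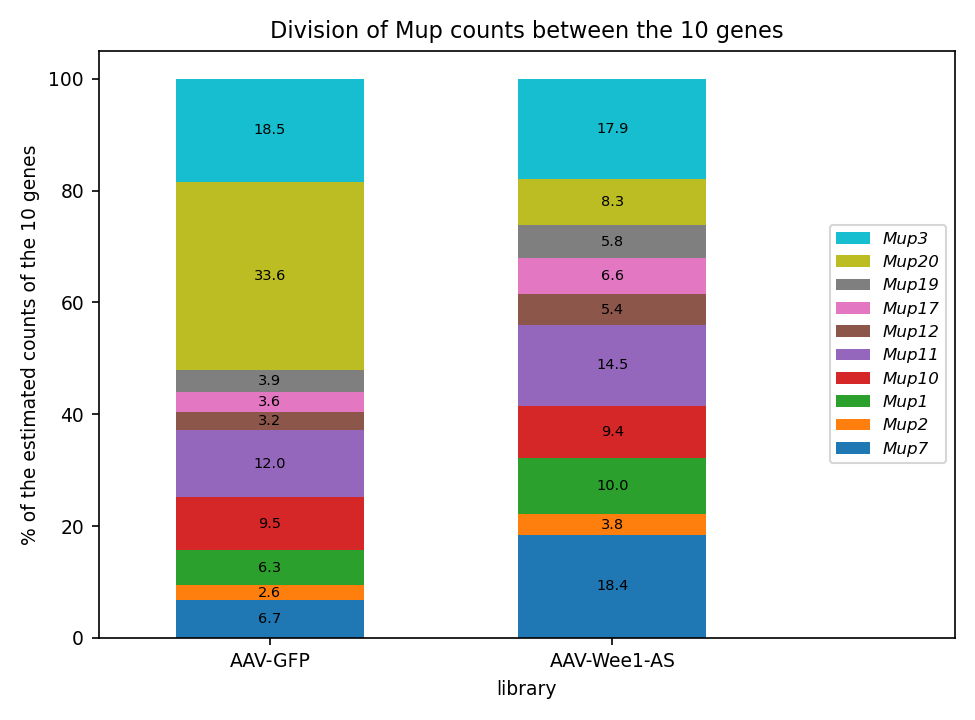
Share of each of the 10 genes in their summed estimated counts (%) in the AAV-GFP and the AAV-*Wee1-AS* library, stacked in order along the cluster from *Mup7* at the bottom to *Mup3* at the top. The *Mup20* block is the tallest with AAV-GFP (33.6%), and *Mup7* (18.4%) and *Mup3* (17.9%) are the tallest with AAV-*Wee1-AS*.

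Of the 23 transcripts of the members, 20 had a ratio above 2, 3 lay between 0.5 and 2, and 0 were below 0.5. Among all 39605 transcripts with at least 10 counts in a library, 31.7% were above 2 and 22.7% below 0.5. In *Mup1*, *Mup10*, *Mup11*, *Mup12*, *Mup17*, *Mup19* and *Mup20*, a single RefSeq transcript held nearly all counts in both libraries. *Mup3* divided into a coding transcript (NM_001039544, 44368 and 111649 counts with AAV-GFP and AAV-*Wee1-AS*) and a noncoding one (NR_149826, 46703 and 118143), with log2 ratios of 1.59 and 1.60. For *Mup7*, NM_001347129 had 21364 and 119490 counts and the predicted transcript XM_030253000 had 11850 and 115963. The share of NM_001347129 in *Mup7* was 64.3% with AAV-GFP and 50.7% with AAV-*Wee1-AS*.

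*Mup2* had different leading transcripts in the 2 libraries. NM_008647 held 97.0% of its counts with AAV-GFP (12644 of 13039) and 11.4% with AAV-*Wee1-AS* (5478 of 48197). The predicted transcript XM_006537651, of 1048 bases against 905 in NM_008647, had 38 counts with AAV-GFP and 32918 with AAV-*Wee1-AS*, 68.3% of the gene. NM_001286096 had 285 and 5481 counts and NM_001045550 had 72 and 4320. Counted by its longest transcript alone, *Mup2* had a log2 ratio of 9.92, against 2.15 for the sum of its transcripts. The 3 member transcripts between 0.5 and 2 were NM_008647 of *Mup2* (log2 ratio -0.94) and the pair of *Mup20*, NM_001012323 (-0.38) and XM_006538045 (0.34).

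All of the other 20 *Mup* symbols had at least 10 counts in a library. Of these, 16 were above 2, 1 was below 0.5 and 3 lay between. Over all genes kept, 22.2% were above 2 and 8.71% below 0.5. The median log2 ratio of the 20 symbols was 1.89. *Mup-ps19* had the most counts with AAV-GFP (94520), and *Mup22* had the most with AAV-*Wee1-AS*, with 74093 counts with AAV-GFP and 207015 with AAV-*Wee1-AS*, a ratio of 3.35. *Mup14* had the highest log2 ratio, 2.80 (16677 and 96883 counts), followed by *Mup-ps9* at 2.55 (33 and 170 counts) and *Mup15* at 2.47 (17233 and 79483). The log2 ratios of *Mup16* (2.26), *Mup13* (2.21), *Mup-ps18* (2.21), *Mup-ps2* (2.15) and *Mup8* (2.08) came next. Those of *Mup9* (1.96), *Mup18* (1.897), *Mup5* (1.88), *Mup6* (1.80), *Mup21* (1.29), *Mup-ps15* (1.23) and *Mup-ps12* (1.16) were the lower ones above 2-fold. Between the limits lay *Mup-ps16* (0.67), *Mup-ps21* (0.42) and *Mup-ps19* (-0.34). With the trends of GC content and length removed, *Mup14*, *Mup15*, *Mup-ps9*, *Mup16*, *Mup13*, *Mup-ps18*, *Mup8* and *Mup-ps2* stayed above 2-fold. *Mup9* (0.93), *Mup18* (0.92), *Mup5* (0.80), *Mup22* (0.75), *Mup6* (0.69), *Mup21* (0.22), *Mup-ps15* (0.17) and *Mup-ps12* (0.10) did not. *Mup-ps16* (-0.36) and *Mup-ps21* (-0.59) turned direction, and *Mup-ps19* (-1.38) fell below 0.5-fold. *Mup4* had 80 counts with AAV-GFP and 0 with AAV-*Wee1-AS*, which makes it at least 22.2-fold lower against a floor of 3 counts in that library.

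The base composition of the transcripts moved with the ratios. Over the 15109 kept genes with a GC value, the Spearman coefficient of the log2 ratio with GC content was -0.67, a description across genes of the same 2 libraries. The GC content of the members was 40.2% to 42.6%. Of the 1134 other kept genes in that range, 62.1% had a ratio above 2, and their median log2 ratio was 1.32. The cluster sum was higher than 65.7% of these genes. Of the 179 among them with at least 1000 counts in both libraries, 65 (36.3%) were above 2, their median was 0.74, and the cluster sum was higher than 88.8%. Of these 179, 1 was higher than *Mup7* and 5 were lower than *Mup20*.

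With the trends of GC content and length removed by lowess fits, the log2 ratio of the cluster sum was 0.65 in place of 1.64. By this measure, 6 of the 10 members were above 2, against 7.38% of the 15109 genes, and 1 was below 0.5, against 8.56%. The log2 ratios were 2.19 for *Mup7*, 1.57 for *Mup17*, 1.42 for *Mup12*, 1.32 for *Mup1*, 1.20 for *Mup19* and 1.19 for *Mup2*. *Mup11* (0.95), *Mup10* (0.63) and *Mup3* (0.49) were higher without reaching 2-fold, and *Mup20* was at -1.47. *Mup-ps19*, the near copy of *Mup20*, was at -1.38. The members kept their order of ratios from *Mup7* to *Mup20* under this removal.

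**Figure D4:**
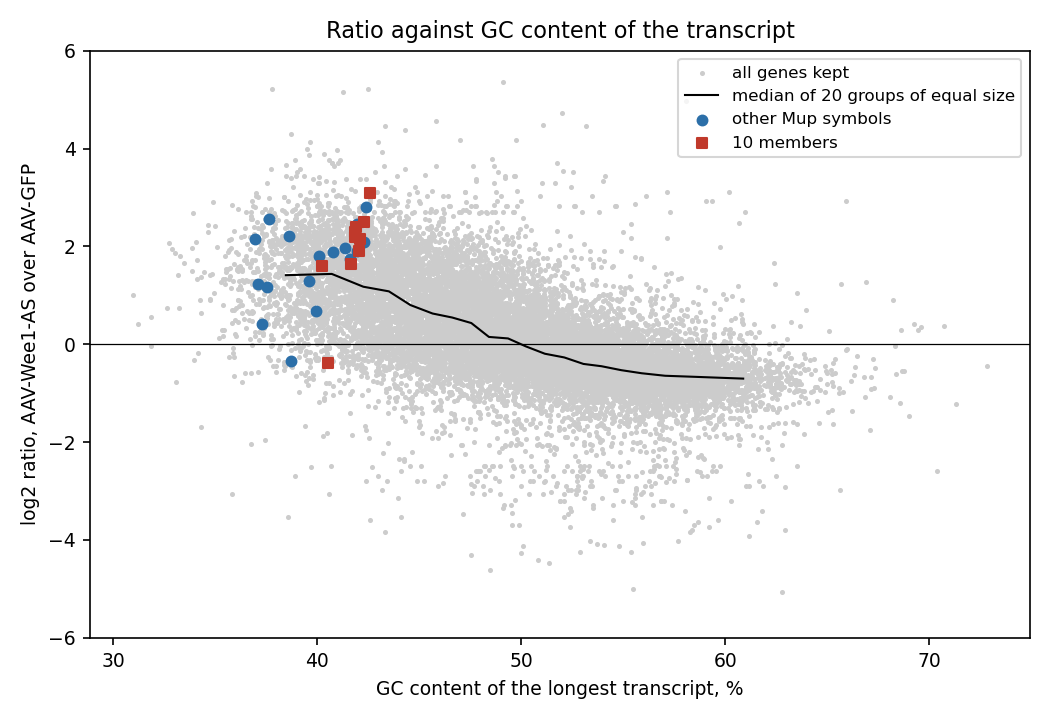
Log2 ratio of AAV-*Wee1-AS* over AAV-GFP against the GC content of the longest GENCODE transcript (%) for 15108 kept genes, 2 of which lie outside the drawn range, with the median of 20 groups of equal size as a line. *Mup4* is left out. Of the 10 members (squares), 9 lie above the line, with log2 ratios from 1.60 to 3.09, and *Mup20* lies below it.

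Genes that act on *Mup* transcription, and other liver genes that differ between the sexes, were looked at beside the cluster. For the counts of these lists, the shares over all genes kept are 22.2% above 2 and 8.71% below 0.5, with a median log2 ratio of -0.02, and nothing particular to a list is read from its count. Of 15 regulators, 4 were above 2 and 0 below 0.5, with a median log2 ratio of -0.15. Those above 2 included *Jak2*, the kinase of the growth hormone receptor (150 and 681 counts with AAV-GFP and AAV-*Wee1-AS*, log2 ratio 2.43), *Nr3c1*, the glucocorticoid receptor (671 and 3025 counts, 2.43), and *Onecut1*, a liver transcription factor (162 and 358 counts, 1.40). The other one, named after its value was seen, was *Ghr*, the growth hormone receptor itself (11685 and 21856 counts, 1.17). The lowest of the regulators with at least 100 counts were *Cebpb* (-0.67), *Cebpa* (-0.67) and *Stat5a* (-0.60). *Stat5b*, also named after its value was seen, had 3620 and 2209 counts, a log2 ratio of -0.45. With the GC content and length trends removed, *Jak2* and *Onecut1* were the regulators above 2. *Ghr* was then at -0.17 and *Cebpa* at 0.10, each on the other side of 0, as was the median of the regulators (0.03).

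Of 20 other genes known to be higher in male liver, 7 were above 2 and 0 below 0.5, with a median log2 ratio of 0.52. The highest were *Hsd3b5*, a steroid-metabolizing enzyme (228 and 2638 counts, log2 ratio 3.78, interval 3.60 to 4.00), *Slco1a1*, an organic anion transporter (668 and 7028 counts, 3.65, 3.54 to 3.78), and *C8a*, a complement component (8946 and 31165 counts, 2.06, 2.03 to 2.098). The lowest were *Fitm1* (-0.71), *Gstp1* (-0.52) and *Nat8* (-0.46). Of 16 kept genes known to be higher in female liver, 3 were above 2 and 5 below 0.5, with a median of -0.28. *Cyp2b13*, a cytochrome P450, had 4219 and 526 counts (-2.74, -2.87 to -2.61), and *Cyp2a4* had 2757 and 1034 (-1.15). *Cyp3a44* had 330 counts with AAV-GFP and 0 with AAV-*Wee1-AS*, at least 91.6-fold lower against the floor of 3 counts. The remaining 2 below 0.5, named after their values were seen, were *Cyp3a41b* (16 and 0 counts) and *A1bg* (12 and 4). Those above 2 were *Fmo2* (1.38), *Nipal1* (1.25) and, with 11 and 21 counts and also named after its value was seen, *Sult1e1*, and *Cyp17a1* was at 0.90. With the trends removed, *Hsd3b5* was at 3.72, *Slco1a1* at 2.27, *C8a* at 1.59 and *Cyp2b13* at -2.76. *Fitm1* (0.12), *Gstp1* (0.21), *Nipal1* (-0.06) and *Sult1e1* (-0.12) were then on the other side of 0. *Cyp2a4* (-0.95) and *A1bg* (-0.61) no longer lay below 0.5, and *Fmo2* (0.40) no longer above 2. *Cyp3a16* (-1.61) and *Hao2* (-1.02) were then below 0.5, so the count of female-biased genes below 0.5 stayed at 5. The P450 genes are also families of like copies, whose reads can be shared.

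Other secreted proteins of the liver were read on the same scale. The shares over all genes kept are again 22.2% above 2 and 8.71% below 0.5. Of 25 secretory genes, 1 was above 2 (*Apob*, the protein of very low-density lipoprotein, 71263 and 209460 counts, log2 ratio 1.82) and 0 were below 0.5, with a median of -0.16. The next highest were the fibrinogen chains *Fgb* (0.79) and *Fgg* (0.63), and the lowest were *Hpx* (-0.72), *Apoe* (-0.69) and *Apoc3* (-0.68). Of 10 kept lipocalins outside the cluster, 0 were above 2 and 1 was below 0.5 (*Ptgds*, 20 and 6 counts, named after its value was seen), with a median of -0.28. *Orm1* (0.35) and *Obp2a* (0.31) were the highest of those with at least 100 counts, and *C8g* (-0.56), *Orm2* (-0.44) and *Orm3* (-0.43) the lowest. With the trends of GC content and length removed, *Apob* was at 0.08. *Fgb* (-0.10), *Fgg* (-0.24), *Apoe* (0.11), *Apoc3* (0.08) and *C8g* (0.01) were then on the other side of 0. So were the list medians, 0.19 for the secretory genes and 0.33 for the lipocalins. The TPM values of *Apoe*, 16966 with AAV-GFP and 24090 with AAV-*Wee1-AS*, also ran against its ratio of counts.

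**Figure D5:**
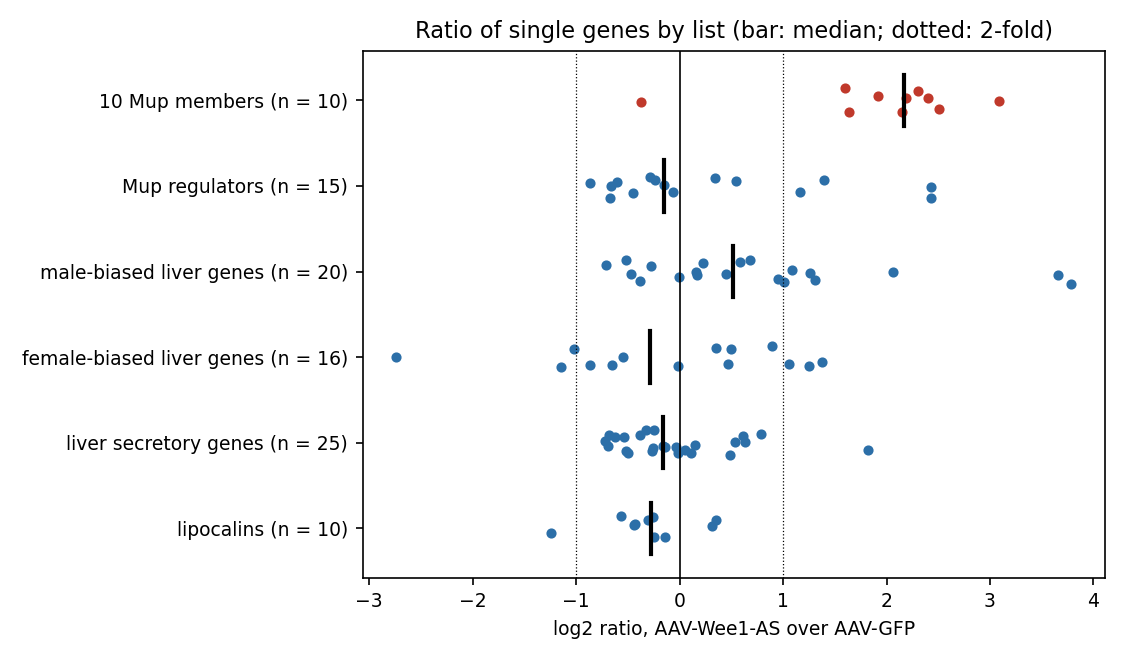
Log2 ratio of AAV-*Wee1-AS* over AAV-GFP for single genes of 6 lists, 1 point per kept gene, with a bar at the median of each list and dotted lines at 2-fold; the vertical scatter has no meaning and *Cyp3a44* and *Cyp3a41b*, at 0 counts in 1 library, are not drawn. The median is 2.17 for the *Mup* members, 0.52 for the male-biased genes and between -0.28 and -0.15 for the other 4 lists. With the trends of GC content and length removed (not drawn), the medians are 1.20 for the members and 0.31 for the male-biased genes. They are -0.60 for the female-biased genes, 0.03 for the regulators, 0.19 for the secretory genes and 0.33 for the lipocalins.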

How the data were processed

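RNA was taken from liver, poly-A RNA was selected, strand-specific libraries were made and paired reads of 100 bases were sequenced. The submitters' processing notes name Trimmomatic 0.38, HISAT2 2.1.0, SAMtools 1.9, StringTie 2.1.3b and the mm10 build. The authors deposited, for each RefSeq transcript, an estimated count (FPKM times length over a constant per library, in whole numbers), a FPKM value and a TPM value. A read that fits several copies was divided by that program, and no read was assigned again here.

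Estimated counts were summed per symbol and scaled by TMM in edgeR 4.0.16 (R 4.3.3) (factors 1.02 in the control and 0.980 in the other library). Genes that reached 10 counts in a library were kept, and limits of 2 and 0.5 were applied. GC content and length came from the longest GENCODE M21 transcript (95.3% of kept genes), and trends were removed by lowess with a span of 0.3 over 5 cycles. Of every list except the *Mup* genes, all members were named where 6 or fewer were kept, and otherwise up to 3 with the largest rise and 3 with the largest fall among those with at least 100 counts. The cell type marker lists, which served as checks, are given mostly by counts, sums and medians and depart from this rule. Ratios and intervals were tested on simulated counts that held counting error only. The simulation had no variation between mice, no GC trend and no division of reads between copies, so it cannot speak to these limits. The members, lists and tests were chosen with earlier results of these data known. *Wee1-AS* was not analysed here, and one listed regulator of *Mup* transcription is not reported here.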

Additional observations from a re-analysis of the deposited data

How the results depend on the processing

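No paired analysis was possible because each group is 1 library. The log2 ratio of the cluster sum was 1.64 and stayed above 0 under each alternative. It was 1.59 with library totals, 1.62 with DESeq2 1.42.0 size factors, 1.44 with the upper quartile, 1.59 with totals without the 20 most abundant genes, 1.57 with FPKM and 1.59 with TPM values (pseudocount 1), and the same with a prior count of 0.5. It was 0.65 with the trends of GC content and length removed. It was 0.99 with the longest transcript of each symbol only, which leaves out nearly all counts of several members. It was 1.67 over all *Mup* symbols and, by choices made after the data were seen, 2.11 without *Mup20*, 2.09 over all *Mup* symbols without *Mup20* and *Mup-ps19*, and 1.60 for *Mup3* alone. The count of members above 2 was 9 under each alternative except the removal of trends (6). The share of the library was 1.65% and 4.96% in TPM and 1.51% and 4.62% over all *Mup* symbols. No member changed its direction. The causes of these shifts were not tested.

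The counts over all genes also moved. Above 2 and below 0.5 were 1029 and 307 of 15857 genes with FPKM values, 1608 and 438 with TPM values, 2938 and 2232 with the upper quartile, 1115 and 1293 of 15109 with the trends removed and 3671 and 2349 of 13755 with the longest transcript only, against 3527 and 1381 of 15857. Of the regulators, 2 were above 2 with FPKM values or the trends removed, while 1 was below 0.5 with the upper quartile and 3 with the longest transcript only. Of the male-biased genes, 2 were below 0.5 with the longest transcript only. Of the female-biased genes, 0 were above 2 with FPKM values or the trends removed and 1 with TPM values, and those below 0.5 were 2 with at least 10 counts in both libraries and 3 with at least 50 counts in a library, FPKM or TPM values. Of the secretory genes, 0 were above 2 with the trends removed and 3 were below 0.5 with the longest transcript only. Of the lipocalins, 1 was above 2 with the longest transcript only, and those below 0.5 were 2 without a count filter and 0 with the stricter filters, FPKM, TPM, the trends removed or the longest transcript only. Depth does not limit the members, each of which had over 10000 counts in both libraries. The limits are 1 library per group, shared reads and the trend of the ratios with GC content and length, whose removal changed the sum and the count of members above 2 most among the alternatives run.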

Other observations

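The genes around the cluster were also read. Of the 10 nearest annotated genes outside the cluster, 5 on each side, 5 were kept, of which 3 were above 2 and 0 below 0.5, with a median log2 ratio of 1.05, beside 22.2% of all genes kept above 2. *Snx30* had 188 counts with AAV-GFP and 430 with AAV-*Wee1-AS* (log2 ratio 1.45), *Inip* 108 and 188 (1.05), *E130308A19Rik* 155 and 167 (0.37) and *Slc31a2* 237 and 248 (0.33). The value of *E130308A19Rik* turned direction in TPM (1.10 and 0.922) and with the trends of GC content and length removed (-0.82), by which *Snx30* was at 0.81, *Inip* at 0.64 and *Slc31a2* at 0.46. *Zfp37* had 0 and 18 counts, at least 7.20-fold higher against a floor of 3 counts. Inside the cluster, the noncoding genes *Gm12909* (162 and 539 counts, 1.98) and *Gm21286* (41 and 117 counts, 1.72) were both above 2. All 7 of these genes were far less abundant than the members.

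Among the 50 most abundant kept genes outside the *Mup* family, 5 were above 2 and 1 below 0.5, and the median log2 ratio was -0.02. The shares were 22.2% and 8.71% over all genes kept, and 8.49% and 1.89% over the genes that reached 10000 counts in both libraries, *Mup* symbols included. Without *Mup* symbols, 28 of 511 genes with that many counts were above 2. Of these 50, the 5 genes with a log2 ratio nearest to that of the cluster sum, by absolute difference over this 1 pair of libraries, were *CYTB* (1.73), *Apob* (1.82), *COX1* (1.20), *ND2* (1.14) and *Selenop* (1.10). *CYTB*, *COX1* and *ND2* are encoded in mitochondrial DNA. With the trends of GC content and length removed, their log2 ratios were 0.59, 0.08, 0.06, -0.03 and 0.36 in the same order, against 0.65 for the cluster sum.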
